A study of Homo sapiens with 18 samples.

Results

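The 10 genes described here encode the transcription factors and cofactors that set the erythroid programme: GATA1, GATA2, ZFPM1, TAL1, LMO2, LDB1, KLF1, NFE2, GFI1B and BCL11A. They were chosen by name and not by a threshold on measured values, although earlier results of these data were known when they were chosen, and are 10 of the 28395 genes in the RNA-seq tables. The regions of accessible chromatin assigned to them are all those that overlap the gene or the 5 kb on either side of it, which gave 62 of the 85549 merged ATAC-seq regions. Levels were compared between K562 cells, a human chronic myeloid leukaemia line with erythroid and megakaryocytic features, that had been stably transfected in 3 ways. V-K562 cells were the control. B-K562 cells carried wild-type BASP1 (wtBASP1) and G-K562 cells the mutant BASP1-G2A, in which the glycine that takes the N-terminal myristoyl group is replaced. Each line was selected and kept in G-418 as a pool of transfected cells, so each condition is a single selected pool, and a difference between pools that arose during selection cannot be told apart from an effect of the transgene. RNA-seq and ATAC-seq were each made from 3 independently prepared samples per line, 18 libraries in all.

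In erythroid cells GATA1 and GATA2 bind the same DNA motif, and GATA2 gives way to GATA1 as precursors mature, with ZFPM1 (FOG1) acting as the cofactor that GATA1 needs for much of this exchange. TAL1 binds E-boxes next to GATA motifs through a complex that LMO2 bridges and LDB1 dimerises, and this complex brings enhancers to promoters such as those of the globin genes. KLF1 and NFE2 activate globin, membrane and haem genes, whereas GFI1B and BCL11A are repressors, BCL11A being best known for silencing the fetal globin genes.

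The RNA libraries were close in depth. The deposited RNA values are gene counts divided by size factors and rounded, and they summed to between 32074895 and 33229588 per library, from 28914432 to 37038665 reads on genes as read from the spacing of the rounded values. Between 47111 and 55570 ATAC-seq peaks were called per library. Mean pileup separated the lines, since V-K562 libraries had between 40.3 and 40.9 tags, B-K562 libraries between 47.4 and 47.8 and G-K562 libraries between 50.7 and 52.3, and the part of this in the ATAC-seq results was not tested beyond the alternative scalings given with them. BASP1 itself, the check of the labels, was nearly absent from the V-K562 libraries (7, 5 and 7), while the wtBASP1 libraries read 6849, 6618 and 6189 and the BASP1-G2A libraries 9323, 12538 and 8124. These values follow the labels but cannot show which form of BASP1 was expressed. All adjusted p-values below come from limma-trend with Benjamini-Hochberg adjustment over every gene or region tested in the comparison, on log2(value + 1). Because the 2 comparisons with V-K562 use the same V-K562 libraries, their results are not independent. In bulk RNA, fewer cells of a type and less RNA per cell cannot be told apart, and with 1 pool per line the p-values measure the spread between samples of that pool, with n = 3 libraries per line in every comparison.

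Windows of 300 bases around the summits of 6 regions are shown first, because these regions lost accessibility at least 2-fold in G-K562 compared to V-K562 cells and every one contains a GATA motif. A further region of this kind, in an exon of LMO2 at 0.3 kb, also contains the motif and is not printed because it lies in transcribed sequence near the start. The motif was also found in 81.6% of all regions that closed at least 2-fold in this comparison, and in 44.4% of windows over all regions. No G-K562 library had a peak at TAL1 18.9 kb or LMO2 0.3 kb, so the size of those losses is imputed. Only 1 G-K562 library had a peak at TAL1 20.3 kb, where the size is largely imputed. Capitals mark the motif on either strand, which is AGATAA, or its variants AGATAG and, with another first base, TGATAA and also TGATAG. All are from GRCh38, plus strand, at chrX:48782891-48783190 and chrX:48794347-48794646 (GATA1), chr1:47211899-47212198 and chr1:47213323-47213622 (TAL1), chr12:54295723-54296022 (NFE2) and chr9:132984779-132985078 (GFI1B). Distances are from the start of the gene, the outermost end of its exons, along its direction of transcription, negative when upstream. RefSeq promoters (250 bases before to 50 after an annotated start) can lie elsewhere in a gene, and are named where a region described below overlaps them.
GATA1 region at -3.5 kb, upstream: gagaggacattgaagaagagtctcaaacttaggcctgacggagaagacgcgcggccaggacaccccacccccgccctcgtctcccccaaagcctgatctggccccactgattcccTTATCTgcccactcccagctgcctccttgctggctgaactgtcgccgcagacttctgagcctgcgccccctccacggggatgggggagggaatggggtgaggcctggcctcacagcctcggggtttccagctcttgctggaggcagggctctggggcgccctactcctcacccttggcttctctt
GATA1 region at 7.9 kb, downstream of the gene: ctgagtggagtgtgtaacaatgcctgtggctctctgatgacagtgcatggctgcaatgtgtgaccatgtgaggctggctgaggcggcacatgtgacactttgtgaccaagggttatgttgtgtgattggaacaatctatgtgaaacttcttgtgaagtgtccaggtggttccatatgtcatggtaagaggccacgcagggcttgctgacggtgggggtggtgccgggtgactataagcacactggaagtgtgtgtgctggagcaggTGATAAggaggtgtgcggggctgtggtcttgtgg
TAL1 region at 20.3 kb, downstream of the gene: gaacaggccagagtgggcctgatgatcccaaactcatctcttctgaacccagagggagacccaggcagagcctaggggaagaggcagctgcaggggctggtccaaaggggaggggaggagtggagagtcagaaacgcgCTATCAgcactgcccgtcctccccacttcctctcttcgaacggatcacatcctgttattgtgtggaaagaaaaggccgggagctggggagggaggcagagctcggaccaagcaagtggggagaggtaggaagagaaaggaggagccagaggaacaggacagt
TAL1 region at 18.9 kb, downstream of the gene: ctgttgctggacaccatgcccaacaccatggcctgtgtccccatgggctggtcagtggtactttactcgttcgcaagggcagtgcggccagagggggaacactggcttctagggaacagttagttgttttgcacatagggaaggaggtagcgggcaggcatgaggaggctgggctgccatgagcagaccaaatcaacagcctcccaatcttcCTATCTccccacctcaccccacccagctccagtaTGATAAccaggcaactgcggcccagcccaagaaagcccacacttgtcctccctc
NFE2 region at 5.2 kb, in an intron: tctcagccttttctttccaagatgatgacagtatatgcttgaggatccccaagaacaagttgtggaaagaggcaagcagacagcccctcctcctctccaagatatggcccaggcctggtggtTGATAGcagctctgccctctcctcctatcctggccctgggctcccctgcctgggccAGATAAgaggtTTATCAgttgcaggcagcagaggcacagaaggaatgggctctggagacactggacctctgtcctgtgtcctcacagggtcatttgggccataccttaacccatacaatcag
GFI1B region at 39.4 kb, in an intron: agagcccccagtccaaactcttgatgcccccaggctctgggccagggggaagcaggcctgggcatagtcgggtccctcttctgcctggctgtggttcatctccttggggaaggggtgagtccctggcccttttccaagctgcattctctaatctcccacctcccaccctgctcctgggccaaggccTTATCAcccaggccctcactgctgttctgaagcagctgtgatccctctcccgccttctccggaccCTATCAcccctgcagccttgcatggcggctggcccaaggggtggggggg

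Across the 10 genes, the 2 forms of BASP1 went with different levels. In B-K562 compared to V-K562 cells, 7 of the 9 genes with enough reads to test were higher and 2 were lower, whereas 38.6% of all genes tested were higher and 37.2% lower. ZFPM1 was the only one of the 9 higher by at least 2-fold, against 6.46% of all genes, and none was lower by as much, against 14.1%. For each of the 9, every library of one line lay on the same side of every library of the other, as was the case for 77.8% of all genes. In G-K562 compared to V-K562 cells none of the 9 passed as higher and 7 were lower, against 33.5% and 33.3% of all genes, and KLF1, LMO2 and GFI1B were lower by at least 2-fold, against 10.3%, with none higher by as much, against 8.81%. The libraries did not overlap for 7 of the 9, against 70.2%. Compared to B-K562, all 9 were lower in G-K562 cells and none higher, against 40.5% and 38.1% of all genes, without overlap in any of the 9 (81.0% of all genes), and 6 were lower by at least 2-fold, against 12.5%, with none higher by as much (17.4%). The median log2 difference of the 9 genes was 0.40 in B-K562 and -0.71 in G-K562 compared to V-K562 cells, and -1.04 between the BASP1 lines, while the medians over all genes tested were 0.01, 0.00 and -0.02. The last comparison joins 2 tables that were normalised separately, and the B-K562 values in it were multiplied by 1.017, the mean ratio of the V-K562 values in the 2 tables.

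**Figure D1:**
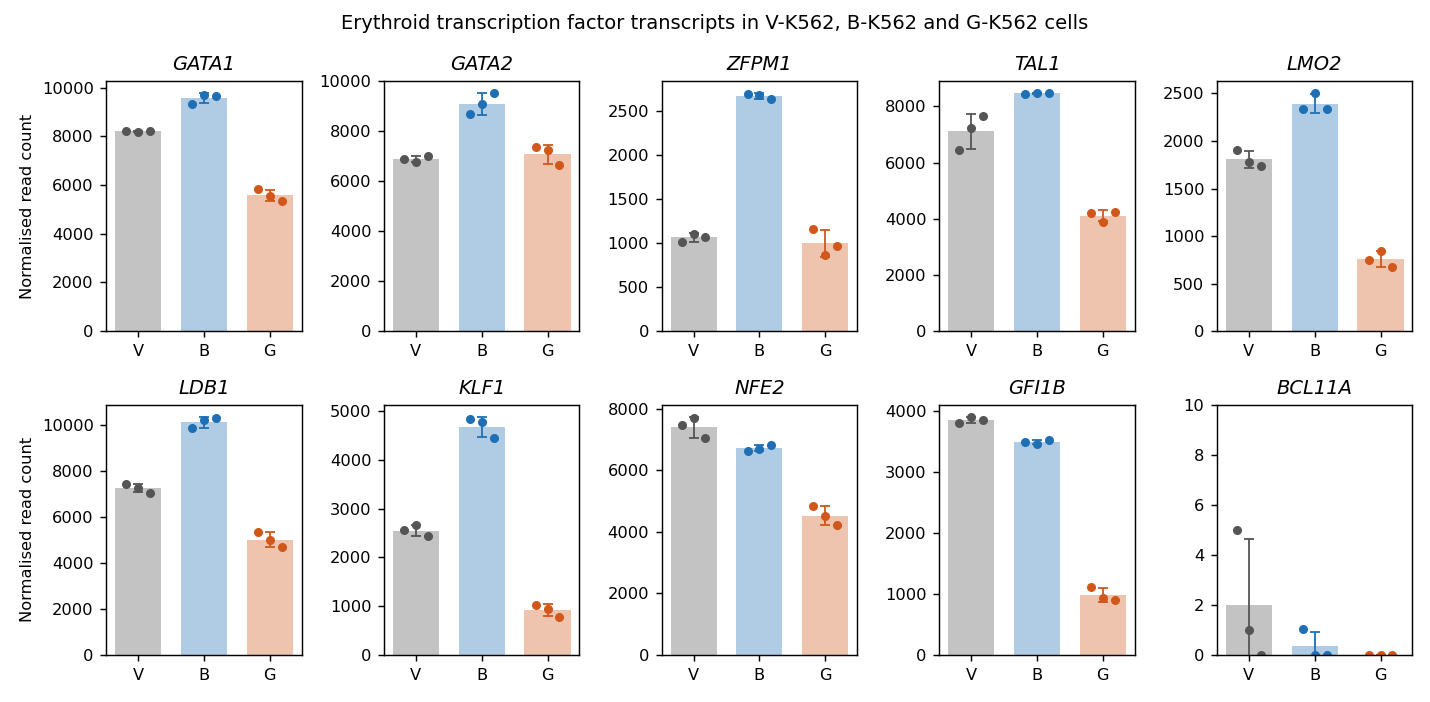
Normalised read counts (vertical axes, each from 0) of the 10 genes in the V-K562 (V), B-K562 (B) and G-K562 (G) libraries, with V-K562 values from the table shared with G-K562 and B-K562 values multiplied by 1.017. Points are libraries, bars the mean and error bars the SD of 3 libraries, and KLF1, LMO2 and GFI1B stand lowest in G-K562 while ZFPM1 stands highest in B-K562.

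**Figure D2:**
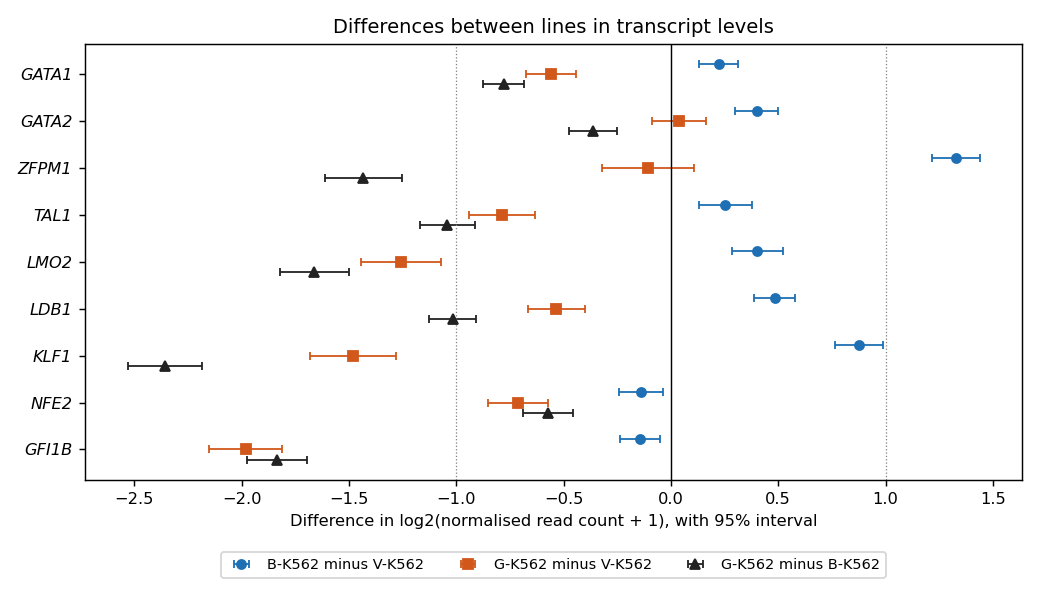
Differences in log2(normalised read count + 1) between the lines (horizontal axis) for the 9 genes tested, with 95% intervals from limma-trend, and dotted lines at a 2-fold change. Circles are B-K562 minus V-K562, squares G-K562 minus V-K562 and triangles G-K562 minus B-K562, and the squares of GATA2 and ZFPM1 have intervals that cross 0.

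GATA1, the GATA factor of committed erythroid cells (chrX:48786560-48794311, plus strand), rose modestly with wtBASP1 and fell with BASP1-G2A. Its normalised read counts were 8083, 8070 and 8033 in V-K562 and 9173, 9548 and 9505 in B-K562 cells. All B-K562 libraries lay above all V-K562 libraries, and the log2 difference was 0.22 (SE 0.04, adjusted p = 0.0003), or 0.11 and still passing under quantile normalization. Against V-K562 values of 8207, 8194 and 8196 in the other table, the G-K562 libraries read 5819, 5560 and 5347. All of these were below V-K562 (log2 difference -0.56, SE 0.05, adjusted p = 3e-06), and the G-K562 minus B-K562 difference was -0.78 (SE 0.04, adjusted p = 8.6e-10). The 83 other genes tested within 5 Mb of GATA1 had a median log2 difference of -0.33 in G-K562 compared to V-K562, and the part of this neighbourhood in the GATA1 result was not tested.

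Of the 4 regions of GATA1, 2 opened in B-K562 cells and all 3 that could be tested closed in G-K562 cells, both compared to V-K562, where 8.58% of all regions opened and 26.0% closed. One of those that opened had no peak in V-K562. ATAC-seq values here are summit pileups, the number of tags at the highest point of a peak in a library, and the fits scale them by a trimmed mean and set a library without a peak to a floor of 17 tags. Tags below the calling limit are not listed, so a library without a peak may have had more tags than this, and a difference that rests on the floor is an imputed value. A region with no peak in one of the lines could enter a comparison only through the line where it was high, so its difference is given as a description with no p-value. The same was done where only 1 library of a line had a peak, because the rest of that line was at the floor. Counts are also given over regions with a peak in both lines, a filter chosen after seeing the data. At -3.5 kb the pileups were 95, 90 and 92 in V-K562, 127, 100 and 117 in B-K562 and 50, 57 and 62 in G-K562 cells. The 3 lines did not overlap in these unscaled values, but after scaling only the loss in G-K562 passed the test (log2 difference -1.05, SE 0.13, adjusted p = 0.00086), and the B-K562 minus V-K562 difference was 0.15 with a 95% interval of -0.11 to 0.42. At 7.9 kb, beyond the 3′ end of the gene, the pileups were 69, 81 and 79 in V-K562, 131, 107 and 150 in B-K562 and 32, 28 and 28 in G-K562 cells. The region was thus highest in B-K562 (0.59, SE 0.14, adjusted p = 0.019) and lowest in G-K562 (-1.69, SE 0.16, adjusted p = 0.00033), and G-K562 differed from B-K562 (G-K562 minus B-K562 -2.30, SE 0.15, adjusted p = 6.7e-06). The gain in B-K562 did not pass once V-K562 replicate 1, 2 or 3 or B-K562 replicate 1 or 3 was left out, with an adjusted p of 0.067, 0.051, 0.056, 0.066 and 0.066 in that order.

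The region nearest the GATA1 start, at -0.6 kb (chrX:48785822-48786184), had peaks of 65, 71 and 69 tags in the B-K562 libraries and no peak in any V-K562 or G-K562 library. With the other libraries at the floor, its fitted difference from V-K562 was 1.87 and that of G-K562 from B-K562 was -1.96, both imputed. The remaining region, at 8.6 kb, held 35, 39 and 37 tags in V-K562, 61, 54 and 63 in B-K562 and 24, 26 and 23 in G-K562 cells. There the G-K562 minus V-K562 difference was -0.92 (SE 0.16, adjusted p = 0.0035) and the B-K562 minus V-K562 difference was 0.52 with an interval of 0.13 to 0.90 (adjusted p = 0.056, and 0.023 without scaling). Compared to B-K562, the 3 regions of GATA1 with a peak in both lines were all lower in G-K562 cells by at least 2-fold, against 6.75% of all such regions.

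GATA2, the GATA factor of stem and early progenitor cells (chr3:128479422-128493187, minus strand), rose with wtBASP1 and was not distinguishable from V-K562 with BASP1-G2A. The B-K562 libraries read 8535, 8924 and 9376 against 6775, 6669 and 6891 in V-K562. The groups did not overlap, and the difference was 0.40 (SE 0.05, adjusted p = 3.6e-06). G-K562 libraries at 7357, 7233 and 6638 overlapped V-K562 libraries at 6879, 6771 and 7031, with a difference of 0.04 (95% interval -0.09 to 0.16, adjusted p = 0.59). G-K562 was below B-K562 (log2 difference -0.36, SE 0.05, adjusted p = 1.5e-05). The antisense gene GATA2-AS1 overlaps GATA2, and the sources used here do not say whether reads were counted by strand, so reads of the pair cannot be told apart. Of the 5 GATA2 regions, 3 were tested in B-K562 and 2 in G-K562 compared to V-K562 cells, and none passed, although the one at 5.3 kb did in both without scaling (0.43 and 0.39, adjusted p of 0.023 and 0.030). In this intronic region, 76, 80 and 88 tags in V-K562 compared with 110, 104 and 115 in B-K562 (log2 difference 0.28, interval 0.02 to 0.53, adjusted p = 0.10) and 117, 99 and 104 in G-K562 cells (0.04, interval -0.23 to 0.31). It overlaps an internal RefSeq promoter of GATA2 (chr3:128488481-128488780). The region nearest the start, at -2.5 kb, had a peak in only 1 V-K562 library (41 tags) and 1 B-K562 library (65 tags) and was not tested.

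ZFPM1, the FOG1 cofactor that binds GATA1 rather than DNA (chr16:88451431-88535166, plus strand), had the largest rise with wtBASP1 of the 9 genes. It read 996, 1088 and 1050 in V-K562 and 2647, 2635 and 2588 in B-K562 cells. The B-K562 libraries were all more than 2-fold higher, with a ratio of means of 2.51 and a log2 difference of 1.33 (SE 0.05, adjusted p = 8.8e-11). In G-K562 cells it read 1156, 861 and 967 against 1011, 1104 and 1072 in V-K562. These overlapped, and the difference of -0.10 (95% interval -0.32 to 0.11) had an adjusted p of 0.36, which became 0.049 with a difference of -0.22 when G-K562 replicate 1 was left out. G-K562 was below B-K562 (log2 difference -1.43, SE 0.08, adjusted p = 1.1e-09). The other genes tested within 5 Mb had a median difference of 0.32 in B-K562 (76 genes) and 0.33 in G-K562 (80 genes) compared to V-K562, and their part in the ZFPM1 values was not tested.

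ZFPM1 is the longest of these loci after BCL11A and carried 15 regions, of which 12 were tested in B-K562 compared to V-K562 cells. Of these, 6 opened and none closed, against 8.58% and 16.6% of all regions tested. The region nearest the start, at 1.3 kb in an intron, held 151, 167 and 135 tags in V-K562, 222, 256 and 277 in B-K562 and 213, 205 and 205 in G-K562 cells. This region contains the RefSeq promoter matched for ZFPM1 (chr16:88453030-88453329). It was open in every library and rose in B-K562 (0.58, SE 0.12, adjusted p = 0.011), while the difference in G-K562 was 0.11 (95% interval -0.11 to 0.34), or 0.46 with an adjusted p of 0.0066 without scaling. When regions were scaled within bins of GC content the B-K562 difference at this site was 0.27 with an adjusted p of 0.12. At 43.2 kb all B-K562 libraries had a peak (91, 90 and 101 tags), 1 V-K562 library did (56 tags, the other 2 being at the floor) and G-K562 had 52, 50 and 67. The fitted difference from V-K562 was 1.75 in B-K562 and 0.88 in G-K562, both largely imputed and given with no p-value. The call as opened in B-K562 was lost when any one of V-K562 replicates 1 and 3 or B-K562 replicates 1, 2 and 3 was left out. Without V-K562 replicate 2, the V-K562 library with the peak, the G-K562 difference was 1.49.

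The other regions of ZFPM1 that opened in B-K562 cells were all intronic, at 17.3 kb (0.70, adjusted p = 0.041), 40.3 kb, 46.5 kb (0.54, adjusted p = 0.0095) and 57.7 kb (0.97, adjusted p = 0.030). The one at 46.5 kb did not pass within GC bins together with the replicate block (0.34, adjusted p = 0.059). Those at 17.3 and 57.7 kb did not pass within GC bins (adjusted p of 0.12 and 0.073) or when any one of V-K562 replicates 1 and 3 or B-K562 replicates 1, 2 and 3 was left out (adjusted p from 0.059 to 0.16). V-K562 replicate 1 had no peak at 57.7 kb and was set to the floor. At 40.3 and 22.6 kb accessibility fell in G-K562 compared to V-K562 cells. At 40.3 kb the pileups were 156, 133 and 151 in V-K562, 235, 238 and 201 in B-K562 and 142, 99 and 93 in G-K562 cells. B-K562 was above (0.46, SE 0.11, adjusted p = 0.017) and G-K562 below V-K562 (-0.77, SE 0.17, adjusted p = 0.0096), although G-K562 replicate 1 lay within the unscaled V-K562 range and the fall did not pass without scaling (-0.42, adjusted p = 0.075). The rise in B-K562 did not pass without B-K562 replicate 1 or 2 (adjusted p of 0.065 and 0.071) or within GC bins (adjusted p = 0.095). At 22.6 kb G-K562 libraries of 59, 45 and 53 tags compared with 79, 75 and 53 in V-K562 and 116, 88 and 95 in B-K562 cells. The loss of -0.73 against V-K562 (SE 0.19, adjusted p = 0.020) did not pass when V-K562 replicate 1 or 2 or G-K562 replicate 2 or 3 was left out (adjusted p of 0.071, 0.073, 0.070 and 0.064) or without scaling (-0.38, adjusted p = 0.15), and that of -1.13 against B-K562 had an adjusted p of 0.0012.

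TAL1, the E-box binding factor of the complex (chr1:47216290-47232373, minus strand), was slightly higher with wtBASP1 and clearly lower with BASP1-G2A. V-K562 libraries read 6352, 7115 and 7520 and B-K562 libraries 8310, 8331 and 8331. The V-K562 libraries were the more spread, none reached B-K562, and the difference was 0.25 (SE 0.06, adjusted p = 0.0011), or 0.14 and still passing under quantile normalization. G-K562 libraries read 4222, 3886 and 4230 against 6449, 7224 and 7673 in V-K562. All were lower (log2 difference -0.79, SE 0.07, adjusted p = 1.7e-06), and the G-K562 minus B-K562 difference was -1.04 (SE 0.06, adjusted p = 9.3e-10). The 96 other genes tested within 5 Mb had a median of -0.40 in G-K562 compared to V-K562, and their part in the TAL1 result was not tested.

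The largest fitted loss of accessibility at any of the 10 genes in G-K562 compared to V-K562 cells lay downstream of TAL1. At 20.3 kb the V-K562 libraries held 94, 64 and 83 tags and the B-K562 libraries 41, 46 and 50, while in G-K562 only 1 library had a peak, of 26 tags, and the other 2 entered the fit at the floor. Among libraries with a peak, the order was V-K562, then B-K562, then G-K562 without overlap. The difference from V-K562 was -0.94 in B-K562 (SE 0.19, adjusted p = 0.011). That of -2.20 in G-K562 is largely imputed and given with no p-value. At 18.9 kb the peaks of 48, 56 and 53 tags in V-K562 and 65, 83 and 75 in B-K562 had no counterpart in any G-K562 library, a fitted difference of -1.74 from V-K562 that is imputed because G-K562 was at the floor. B-K562 minus V-K562 at this site was 0.34 (95% interval -0.01 to 0.70), and 0.49 with an adjusted p of 0.043 without scaling. Over the TAL1 start, the region at -0.1 kb was open in all libraries, with 189, 194 and 260 tags in V-K562, 242, 241 and 278 in B-K562 and 211, 207 and 214 in G-K562 cells. Its G-K562 minus V-K562 difference was -0.36 with an interval of -0.65 to -0.07 (adjusted p = 0.053). It passed with the replicate number as a block (adjusted p = 0.045), within GC bins (-0.55, adjusted p = 0.012), with a peak in every library (adjusted p = 0.010) and with a peak in both lines (adjusted p = 0.045). G-K562 minus B-K562 was -0.48 (adjusted p = 0.015), which did not pass without scaling (-0.26, adjusted p = 0.12) or without B-K562 replicate 3 or G-K562 replicate 3 (adjusted p of 0.062 and 0.054).

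LMO2, the LIM-only protein that bridges TAL1 to GATA factors (chr11:33858576-33892289, minus strand), fell more than 2-fold with BASP1-G2A. G-K562 libraries read 749, 848 and 677 against 1909, 1783 and 1732 in V-K562. There was no overlap, V-K562 was 2.39 times as high, and the log2 difference was -1.26 (SE 0.08, adjusted p = 1.7e-07). B-K562 libraries at 2292, 2463 and 2297 were all above V-K562 at 1880, 1756 and 1697, by 0.40 (SE 0.05, adjusted p = 1.4e-05), or 0.25 under quantile normalization. Between the BASP1 lines the difference was -1.66 (SE 0.07, adjusted p = 7e-11). Of its 7 regions, the one nearest the start, at 0.3 kb, had 44, 40 and 41 tags in V-K562, 30 and 39 in B-K562 replicates 1 and 3 with none called in replicate 2, and no peak in G-K562 cells. With libraries lacking a peak at the floor, the fitted difference from V-K562 was -1.42 in G-K562, an imputed value, and -0.73 in B-K562 (95% interval -1.39 to -0.06, adjusted p = 0.10). A region at 21.7 kb in an intron went the other way, with 62, 49 and 45 tags in G-K562, 37, 34 and 54 in B-K562 and a peak in only V-K562 replicate 2 (29 tags), the other 2 V-K562 libraries being at the floor. This fitted gain of 1.08 in G-K562 over V-K562 is largely imputed and given with no p-value. Its call as opened was lost without V-K562 replicate 1 or 3 or G-K562 replicate 1 or 2.

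LDB1, which dimerises to join distant complexes (chr10:102106558-102120453, minus strand), rose with wtBASP1 and fell with BASP1-G2A. It read 7315, 7158 and 6934 in V-K562 and 9704, 10076 and 10137 in B-K562 cells. The groups were well apart (0.48, SE 0.04, adjusted p = 2.9e-07). Against V-K562 at 7427, 7268 and 7075, G-K562 libraries read 5346, 5014 and 4692. All 3 were lower (log2 difference -0.53, SE 0.06, adjusted p = 1.1e-05), and G-K562 minus B-K562 was -1.02 (SE 0.05, adjusted p = 2.3e-10). The region at the outermost LDB1 start, at -0.2 kb, did not pass in any comparison (though under GC bins G-K562 minus V-K562 was -0.58, adjusted p = 0.026), with 94, 80 and 75 tags in V-K562, 113, 98 and 81 in B-K562 and 93, 100 and 89 in G-K562 cells. An intronic region at 7.9 kb had 48, 41 and 42 tags in V-K562, 97, 102 and 82 in B-K562 and 53, 51 and 51 in G-K562 cells. Here B-K562 alone was high, by 0.93 over V-K562 (SE 0.15, adjusted p = 0.0051) with a G-K562 minus B-K562 difference of -1.05 (SE 0.13, adjusted p = 0.00033), while G-K562 minus V-K562 was -0.10 (95% interval -0.47 to 0.26). Another region, in an intron at 5.5 kb, contains the RefSeq promoter matched for LDB1 (chr10:102114953-102115252). It was higher in G-K562 than in V-K562 by 0.53 (SE 0.16, adjusted p = 0.033), but not within GC bins (0.18, adjusted p = 0.39) or without any one of V-K562 replicates 1 and 3 and G-K562 replicates 1, 2 and 3 (adjusted p from 0.058 to 0.11).

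KLF1, the activator of the adult globin and red cell membrane genes (chr19:12884422-12887203, minus strand), had the widest range over the 3 lines. V-K562 libraries read 2519, 2622 and 2380 and B-K562 libraries 4746, 4685 and 4369. B-K562 was 1.83 times as high with no overlap (log2 difference 0.88, SE 0.05, adjusted p = 4.1e-09). G-K562 libraries read 1019, 951 and 781 against 2558, 2662 and 2428 in V-K562. V-K562 was 2.78 times as high (log2 difference -1.48, SE 0.09, adjusted p = 8.6e-08). The G-K562 minus B-K562 difference was -2.36 (SE 0.08, adjusted p = 5.1e-12), B-K562 being 5.10 times as high.

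Whether accessibility at KLF1 changed depended on the processing. Only 3 of its 4 regions had enough peaks to test, and none passed in any comparison in the fit used throughout, which has trimmed-mean scaling, peaks in at least 3 libraries and all libraries. At 2.0 kb, in an intron, the tags were 177, 180 and 189 in V-K562, 169, 175 and 183 in B-K562 and 191, 186 and 223 in G-K562 cells, and the differences from V-K562 were -0.20 (95% interval -0.39 to -0.01) and -0.22 (interval -0.42 to -0.02). Within GC bins both passed as losses (-0.43 in B-K562 and -0.56 in G-K562, adjusted p of 0.0088 and 0.0024), and the G-K562 difference also passed without G-K562 replicate 3 (-0.28, adjusted p = 0.048), whereas without scaling it was 0.13 (adjusted p = 0.29). At -3.8 kb they were 154, 285 and 220 in V-K562, 311, 314 and 314 in B-K562 and 372, 296 and 397 in G-K562 cells, with differences of 0.40 (interval -0.01 to 0.82) and 0.37 (interval -0.10 to 0.85). V-K562 was the most variable line at this site. Both differences passed when regions had to have a peak in every library (adjusted p of 0.0056 and 0.011), that in B-K562 also without V-K562 replicate 2 (0.60, adjusted p = 0.043) and that in G-K562 without scaling (0.72, adjusted p = 0.026). The third, at 5.7 kb, differed by -0.37 (interval -0.76 to 0.02) and 0.05 (interval -0.34 to 0.44), the first passing without V-K562 replicate 1 (-0.57, adjusted p = 0.016) or with a peak in every library (adjusted p = 0.036). Its G-K562 minus B-K562 difference of 0.40 (adjusted p = 0.091) passed without scaling (0.61, adjusted p = 0.015) and with a peak in every library (adjusted p = 0.016), and DNASE2 or GCDH lies within 5 kb of each of the 4. The region nearest the start, at -0.4 kb, was called in B-K562 replicate 2 alone, with 106 tags. The RefSeq promoter of KLF1 (chr19:12887152-12887451, GRCh38, minus strand, 250 bases before to 50 after the start) is shown because this gene had the largest RNA difference, and it holds 2 GATA motifs, in capitals as above, and no CCNCNCCC.
KLF1 promoter: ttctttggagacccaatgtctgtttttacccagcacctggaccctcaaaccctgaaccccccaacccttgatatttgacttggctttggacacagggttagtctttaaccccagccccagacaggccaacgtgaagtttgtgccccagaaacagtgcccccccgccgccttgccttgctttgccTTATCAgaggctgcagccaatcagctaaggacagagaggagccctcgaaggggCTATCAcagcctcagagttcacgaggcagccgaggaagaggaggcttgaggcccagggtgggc

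NFE2, the large subunit of the NF-E2 activator that pairs with small Maf proteins (chr12:54292107-54301037, minus strand), was lower in both BASP1 lines. B-K562 libraries read 6507, 6591 and 6715 and V-K562 libraries 7356, 7583 and 6892. The lines did not overlap but the difference was small, -0.14 (SE 0.05, adjusted p = 0.017), and did not pass without V-K562 replicate 2 or B-K562 replicate 1 or 2 (adjusted p of 0.068, 0.064 and 0.061), while under quantile normalization it was -0.28 and passed. The 180 other genes tested within 5 Mb had a median of -0.35 in this comparison, and their part in it was not tested. G-K562 libraries at 4843, 4504 and 4222 were further below V-K562 at 7469, 7699 and 7032 (log2 difference -0.71, SE 0.06, adjusted p = 1.8e-06), and below B-K562 (log2 difference -0.57, SE 0.05, adjusted p = 2.3e-07). The intronic region at 5.2 kb held 246, 237 and 261 tags in V-K562, 265, 271 and 218 in B-K562 and 153, 150 and 128 in G-K562 cells. The loss was seen in G-K562 (-1.14, SE 0.11, adjusted p = 0.00034), and B-K562 minus V-K562 was -0.14 (95% interval -0.37 to 0.09). At the start itself the region was called in every library, and its differences from V-K562 were 0.01 (interval -0.29 to 0.30) in B-K562 and 0.28 (interval 0.04 to 0.51, adjusted p = 0.062) in G-K562 cells, the latter being 0.63 with an adjusted p of 0.0021 without scaling. Upstream, at -3.4 kb, B-K562 at 234, 290 and 260 tags was above V-K562 at 141, 187 and 147 (0.57, SE 0.13, adjusted p = 0.015), a call lost without any one of V-K562 replicates 1 and 3 and B-K562 replicates 2 and 3 (adjusted p from 0.059 to 0.068).

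GFI1B, the zinc finger repressor that recruits the demethylase KDM1A (chr9:132945545-132991697, plus strand), had the largest fall with BASP1-G2A. G-K562 libraries read 1106, 927 and 903 against 3798, 3901 and 3849 in V-K562. V-K562 was 3.93 times as high, the widest gap of the 9 genes in this comparison (log2 difference -1.98, SE 0.08, adjusted p = 2.6e-09). In B-K562 cells it read 3424, 3390 and 3455 against 3740, 3842 and 3772, lower (log2 difference -0.14, SE 0.04, adjusted p = 0.0075). This small difference did not pass in a fit of all 9 libraries (adjusted p = 0.060) and was -0.29, and passed, under quantile normalization, and G-K562 minus B-K562 was -1.84 (SE 0.07, adjusted p = 7.5e-12).

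The GFI1B region nearest the outermost start, at -1.0 kb, did not pass in any comparison. It held 54, 52 and 43 tags in V-K562, 78, 90 and 58 in B-K562 and 116, 68 and 88 in G-K562 cells, with differences from V-K562 of 0.43 (95% interval -0.02 to 0.87) and 0.48 (interval 0.01 to 0.96, adjusted p = 0.095), the latter passing without scaling (0.83, adjusted p = 0.014). TSC1 also lies within 5 kb of that region. The intronic region at 39.4 kb did fall, from 50, 58 and 50 tags in V-K562 to 35 and 31 in G-K562 replicates 1 and 3 with no peak in replicate 2, set to the floor in the fit, and rose to 81, 104 and 84 in B-K562 cells. The differences from V-K562 were -1.26 (SE 0.24, adjusted p = 0.0051) in G-K562 and 0.60 (SE 0.15, adjusted p = 0.023) in B-K562. The latter did not pass under scaling within GC bins (0.46, adjusted p = 0.070) or without any one of V-K562 replicates 1 and 3 and B-K562 replicates 2 and 3 (adjusted p from 0.060 to 0.083). Smaller losses passed in G-K562 in an exonic region at 33.2 kb (-0.53, adjusted p = 0.023), and in both BASP1 lines downstream of the gene at 49.1 kb (-0.34 in B-K562 and -0.31 in G-K562, adjusted p of 0.030 and 0.019). The exonic region overlaps an internal RefSeq promoter of GFI1B (chr9:132978444-132978743), so it lies at an annotated start. The one at 33.2 kb did not pass without scaling (-0.19, adjusted p = 0.35), within GC bins (-0.32, adjusted p = 0.13) or without V-K562 replicate 3 or G-K562 replicate 1 or 2 (adjusted p of 0.055, 0.060 and 0.067). At 49.1 kb the unscaled tags of the lines overlapped, at 197, 220 and 207 in V-K562, 206, 177 and 167 in B-K562 and 228, 192 and 222 in G-K562 cells. Without scaling the G-K562 difference there was 0.04 (adjusted p = 0.76) and that in B-K562 -0.19 (adjusted p = 0.20). The call was also lost in G-K562 without V-K562 replicate 2 or G-K562 replicate 2 or 3 (adjusted p from 0.051 to 0.059), and in B-K562 without any one of V-K562 replicates 1, 2 and 3 or B-K562 replicates 2 and 3 (adjusted p from 0.054 to 0.098).

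BCL11A, the repressor of fetal globin genes (chr2:60451167-60553498, minus strand), was near the limit of detection. Its normalised read counts were 5, 1 and 0 in V-K562, 1, 0 and 0 in B-K562 and 0 in all G-K562 libraries. It did not pass the filter on low values, so no difference was tested or can be read from these counts. Its 4 regions were weak as well. The one nearest the start, at -0.2 kb, was called in G-K562 replicate 3 alone with 27 tags, and the one at -1.8 kb ranged from 18 to 31 tags in the 6 libraries with a peak.

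Over all 62 regions, 29 had a peak in all 9 libraries and 13 in 1 library only, with 15 upstream of the gene, 30 in introns, 5 in exons and 12 downstream. Of the 44 tested in B-K562 compared to V-K562 cells, 11 opened and 2 closed, against 8.58% and 16.6% of all regions, and 2 opened by at least 2-fold, against 1.53%, with none closed by as much, against 6.15%. The count of 11 opened rests on small margins, being 6 under scaling within GC bins, 5 without V-K562 replicate 1 or 3 or B-K562 replicate 2 or 3 and 6 without B-K562 replicate 1, and 1 closed without V-K562 replicate 3 or B-K562 replicate 2 or 3. In G-K562 compared to V-K562 cells 2 of 41 opened and 12 closed, against 15.9% and 26.0%, and 1 opened and 7 closed by at least 2-fold, against 2.87% and 13.1%. None opened when V-K562 replicate 1 or 3 or G-K562 replicate 1 or 2 was left out, 1 did without G-K562 replicate 3 and 4 without V-K562 replicate 2. Between G-K562 and B-K562 cells none of 44 opened and 16 closed, against 12.3% and 15.6%, and 11 closed and none opened by at least 2-fold, against 8.60% and 4.28%. Over regions with a peak in both lines, 10 opened and 2 closed in B-K562 (7.18% and 11.4% of all such regions), 2 opened and 11 closed in G-K562 (14.9% and 18.8%), and none opened and 14 closed between the BASP1 lines (11.3% and 13.2%). Of these, 1 opened and none closed at least 2-fold in B-K562 (0.994% and 4.57%), 1 opened and 5 closed at least 2-fold in G-K562 (2.10% and 9.67%), and none opened and 9 closed at least 2-fold between the BASP1 lines (3.49% and 6.75%). The 1 that opened in B-K562 (ZFPM1 at 43.2 kb) and the 1 in G-K562 (LMO2 at 21.7 kb) had a peak in only 1 V-K562 library. TAL1 at 20.3 kb, among the 5 closed, had a peak in only 1 G-K562 library. All the splits given here depend on the scaling. Without it the median over all regions in G-K562 compared to V-K562 moved from -0.10 to 0.19, and the regions of the 10 genes gave 11 opened and 8 closed, with 1 opened and 4 closed by at least 2-fold. In B-K562 the median moved from -0.06 to 0.06, with 16 opened and 1 closed, and between the BASP1 lines from 0.00 to 0.12, with 3 opened and 13 closed.

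**Figure D3:**
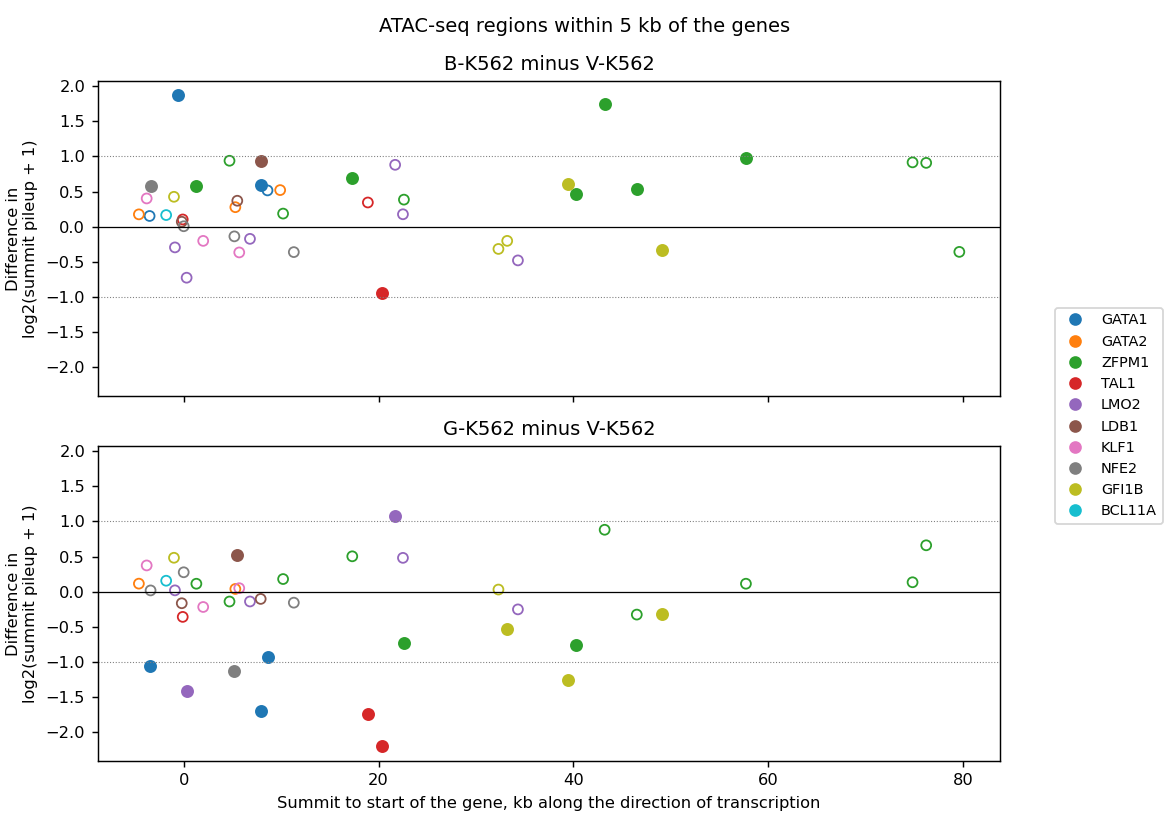
Difference in log2(summit pileup + 1), after trimmed-mean scaling, of each tested region within 5 kb of the genes (vertical axis) against the distance of its summit from the gene start in kb (horizontal axis), for B-K562 minus V-K562 (upper panel) and G-K562 minus V-K562 (lower panel). Filled points passed an adjusted p of 0.05, open points did not, colours are genes and dotted lines mark a 2-fold change. In the upper panel 11 filled points lie above 0 and 2 below, and in the lower panel 2 above and 12 below.

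**Figure D4:**
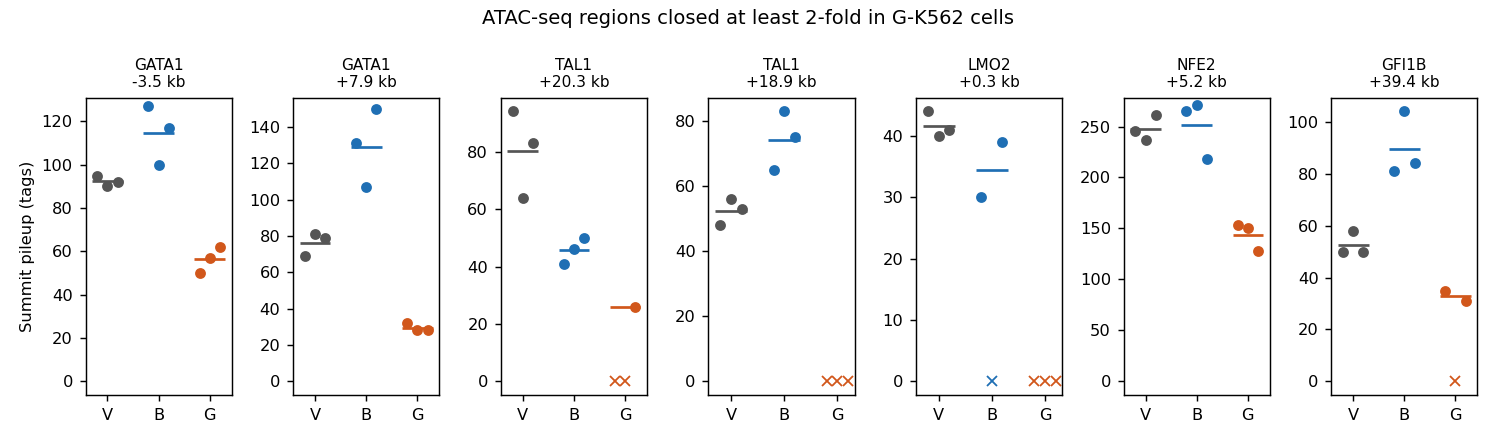
Summit pileups in tags (vertical axes, from 0) in each V-K562 (V), B-K562 (B) and G-K562 (G) library at the 7 regions that closed at least 2-fold in G-K562 compared to V-K562 cells. Points are libraries with a peak, crosses libraries without one and lines the mean of the points, and no G-K562 library had a peak at the TAL1 region at 18.9 kb or the LMO2 region at 0.3 kb.

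All 7 regions that closed at least 2-fold in G-K562 compared to V-K562 cells held a GATA motif in their 300-base window, compared with 12 of the other 34 tested regions of these genes (35.3%). The same was true of all 11 that closed at least 2-fold compared to B-K562 cells, with 11 of the other 33 (33.3%). Over the genome the motif was in 86.7% of the 5177 regions that closed at least 2-fold compared to B-K562. With a peak in both lines the counts for these genes were 5 of 5 and 9 of 9 regions, against 79.9% and 85.4% of all such closed regions. The motif was common in such regions across the genome. It was found in 81.6% of all 7124 regions that closed at least 2-fold in G-K562 compared to V-K562 cells, in 41.0% of all 54213 tested and in 22.4% of the 1556 that opened. For reference, 44.4% of windows over all 85549 regions and 25.0% of 35116 RefSeq promoters of 300 bases held it. The KLF site CCNCNCCC, searched on both strands like the others, was in 5 of the 7 windows and in 79.4% of the other tested regions of the genes, against 29.8% of all regions that closed at least 2-fold in this comparison, 43.1% of all regions and 56.2% of promoters. CAGATG, the E-box preferred by TAL1, and TGAGTCA, the core of the NF-E2 site, were in none of the 7. They were in 8.8% and 2.9% of the other 34 tested regions of the genes. Their shares were 29.6% and 21.3% of all regions that closed at least 2-fold, 21.9% and 16.5% of all regions and 14.7% and 4.9% of promoters. A match is a run of letters and not evidence that a factor was bound there. RefSeq promoters were matched for 8 of the 10 genes, and not for LMO2 and NFE2.

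Levels can be compared between genes as normalised read counts per kb of exon. In V-K562 cells GATA1 was the most abundant at 5433 ± 4.64 (SD, n = 3), followed by NFE2 at 3327 ± 152, LDB1 at 1975 ± 48.0, GATA2 at 1831 ± 34.7, KLF1 at 1496 ± 68.8, GFI1B at 1200.3 ± 16.1, TAL1 at 1032 ± 89.8, LMO2 at 678 ± 34.2 and ZFPM1 at 191 ± 8.51. No neighbours in that order overlapped between libraries. With wtBASP1 the order began with GATA1 (6341 ± 138), NFE2, LDB1 and KLF1, the last of which had passed GATA2 to reach 2745 ± 121 and overlapped LDB1. With BASP1-G2A the order was GATA1 (3695 ± 157), NFE2 and GATA2 (overlapping), LDB1, TAL1 and KLF1 (overlapping, at 596 ± 28.5 and 538 ± 71.9), GFI1B and LMO2 (overlapping, at 305 ± 34.6 and 284 ± 32.2) and ZFPM1 (179 ± 26.9). BCL11A was last in all 3 lines.

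A list of 26 partner genes, which act with these factors or recruit their corepressors, is given for comparison. In B-K562 compared to V-K562 cells 15 of 26 were higher and 6 lower, against 38.6% and 37.2% of all genes, with a median of 0.23. In G-K562 13 were higher and 5 lower, against 33.5% and 33.3%, with a median of 0.24. IKZF1 (Ikaros), a lymphoid and fetal erythroid regulator, had the largest rise in B-K562, from 1804 ± 93.8 to 4151 ± 140 (SD, n = 3, log2 difference 1.20, adjusted p = 2.2e-10), followed by SSBP3, which protects LDB1 from degradation (0.86, adjusted p = 8.3e-10). SOX6, a partner of BCL11A, fell from 237 ± 11.7 to 41.3 ± 7.57 (-2.50, adjusted p = 2.8e-09), and GFI1, the paralogue of GFI1B, from 284 ± 30.7 to 73.7 ± 6.66 (-1.93, adjusted p = 5.5e-09).

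In G-K562 compared to V-K562 cells the largest rises among the partners were those of RUNX1, a regulator of progenitors and megakaryocytes (0.82, SE 0.07, adjusted p = 7e-07), and LMO4, a LIM-only relative of LMO2 (0.80, SE 0.08, adjusted p = 2.7e-06). KDM1A, the histone demethylase that works with GFI1B, was lower at 5045 ± 82.2 against 10250 ± 586 (-1.02, SE 0.06, adjusted p = 4.1e-08), as was MAFF, a small Maf protein (-0.68, SE 0.09, adjusted p = 6.3e-05). Between G-K562 and B-K562 cells 10 partners were higher and 11 lower, against 38.1% and 40.5% of all genes. SOX6 (3.14) and GFI1 (2.14) had the largest positive differences and KDM1A (-1.02) and SSBP3 (-0.95) the largest negative ones.

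A list of 30 erythroid target genes, made up of globins and their chaperone, haem and iron genes, red cell membrane proteins and other genes of red cell metabolism and survival, was mostly higher with wtBASP1 and mostly lower with BASP1-G2A. In B-K562 compared to V-K562 cells 25 of the 28 tested were higher and 1 was lower, against 38.6% and 37.2% of all genes, with a median of 0.87, and 11 were higher by at least 2-fold, against 6.46%. HBZ, the embryonic zeta globin, rose from 2804 ± 566 to 12909 ± 179 (SD, n = 3, log2 difference 2.22, SE 0.11, adjusted p = 5.4e-10) and HBA2, an alpha globin, from 997 ± 145 to 4305 ± 165 (2.12, SE 0.09, adjusted p = 1.2e-10). HBA2 has a near-identical copy, HBA1, so the split of reads between them is uncertain, as it is for HBG1 and HBG2. SLC25A37, the mitochondrial iron importer mitoferrin, was the exception, at -0.41 (SE 0.05, adjusted p = 2.7e-06).

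In G-K562 compared to V-K562 cells 24 of the 28 targets were lower and 2 higher, against 33.3% and 33.5% of all genes, with a median of -1.17, and 18 were lower by at least 2-fold, against 10.3%. AHSP, the chaperone of alpha globin, read 1, 11 and 8 in G-K562 and 487, 463 and 334 in V-K562 cells (log2 difference -6.14, SE 0.51, adjusted p = 1e-06). PKLR, the red cell pyruvate kinase, fell from 3402, 3916 and 3232 to 309, 301 and 271 (-3.57, SE 0.09, adjusted p = 8.8e-11). The 2 that rose were TFRC, the transferrin receptor (0.56, SE 0.08, adjusted p = 5e-05), and BCL2L1, which encodes the survival factor BCL-xL (0.55, SE 0.06, adjusted p = 4.8e-06). Between G-K562 and B-K562 cells 27 targets were lower, against 40.5% of all genes, 22 of them by at least 2-fold, against 12.5%, and BCL2L1 alone was higher (0.52, SE 0.05, adjusted p = 1.2e-07). The adult globin gene HBB and HBM were too low to test, with HBB at 7, 7 and 8 in V-K562, 4, 10 and 7 in B-K562 and 2, 1 and 1 in G-K562 libraries.

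**Figure D5:**
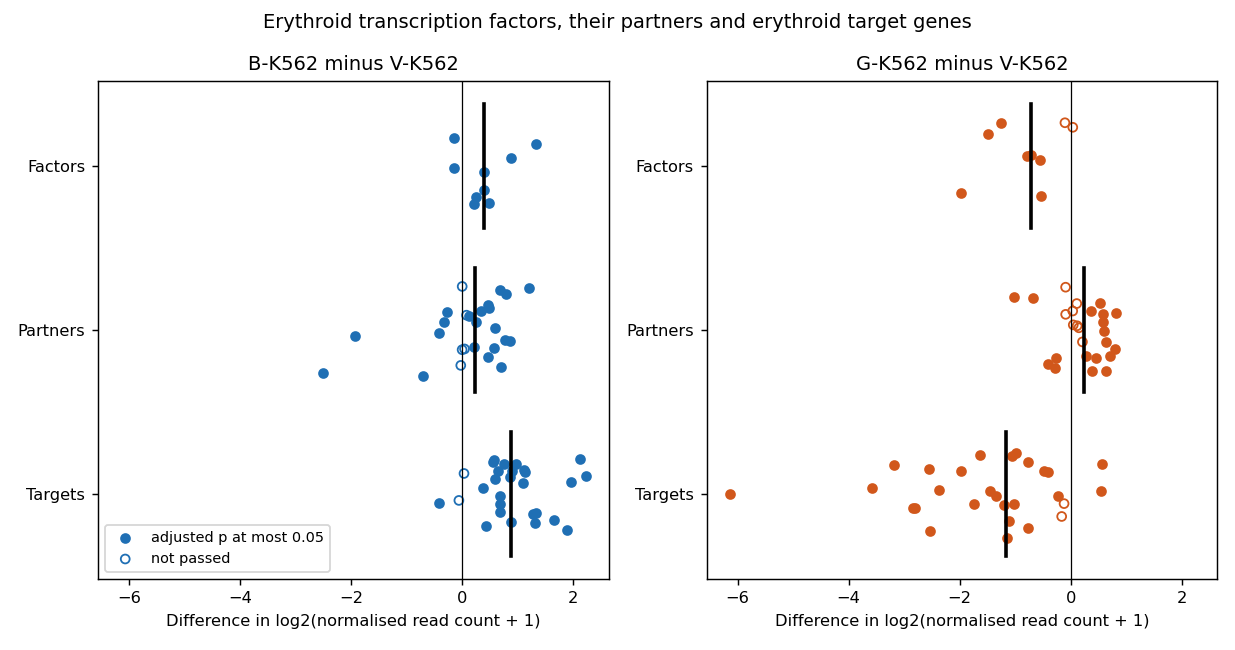
Differences in log2(normalised read count + 1) of the tested erythroid factors (Factors), their 26 partners and 28 erythroid targets, for B-K562 minus V-K562 (left) and G-K562 minus V-K562 (right). Each point is a gene, filled where the adjusted p is at most 0.05, with vertical jitter for display and a bar at the median, which is 0.87 for targets on the left and -1.17 on the right, and 0.23 and 0.24 for partners.

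Some markers of other blood lineages also differed between the lines, and their part in the results above was not tested. Of all genes tested, 38.6% were higher and 37.2% lower in B-K562, and 33.5% higher and 33.3% lower in G-K562, compared to V-K562 cells. The lists are too short for their counts to be set apart from these shares. Of 10 megakaryocyte markers, 2 were testable and lower in B-K562 (37.2% of all genes) and 1 of 3 was lower in G-K562 (33.3%) compared to V-K562 cells. Their summed level ranged over 4514 to 4926 in V-K562 libraries, 1813 to 2103 with wtBASP1 and 1051 to 1453 with BASP1-G2A, most of it ITGA2B. GP9 was too low to test, at 2, 5 and 0 in V-K562 and at 0 in B-K562 and G-K562 cells. Of 8 testable myeloid markers, 2 were higher and 5 lower in B-K562 (38.6% and 37.2% of all genes), and 2 were higher and 1 lower in G-K562 (33.5% and 33.3%). Their sum was between 3502 and 3923 in V-K562 libraries, between 2668 and 2821 with wtBASP1 and between 6349 and 7031 with BASP1-G2A. LYZ, the lysozyme gene, accounted for much of the last, at 4301, 3822 and 3772 in G-K562 against 1353, 1323 and 1369 in V-K562 cells. SPI1, the myeloid master factor and antagonist of GATA1, was lower in B-K562 (-0.55, adjusted p = 3.5e-07) and not distinguishable in G-K562 cells (0.09, adjusted p = 0.22). ELANE was too low to test, at 9, 2 and 1 in V-K562 and at 0 in all B-K562 libraries. Lymphoid markers summed to at most 182 in any library, with 2 of 3 testable genes lower in B-K562 (37.2% of all genes) and 1 higher in G-K562 (33.5%), and MS4A1 was at 0 in all 9 libraries.

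For the 4 factors with the widest range of line means, the genes with the most similar levels over the 9 RNA libraries were sought. By Pearson's r among 15520 genes, the closest to KLF1 were CT47B1 and DCAF4L2 (0.999 and 0.998), and the closest to GFI1B were PSTPIP2 and LINC01535 (both 0.999). SDHB and GSTP1 were closest to LMO2 (0.999 and 0.998), and TGFBRAP1 and POM121 to ZFPM1 (both 0.996). These values are descriptions, because the 9 points fall into 3 lines and many genes that differ between the lines in the same order reach similar values.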

How the data were processed

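Normalised read counts are score values in the deposited RNA-seq tables: the authors aligned read pairs to GRCh38 (STAR), dropped duplicates, assigned pairs to RefSeq genes (Subread), divided the resulting numbers by the DESeq2 size factors of each table and rounded them. The deposited ATAC-seq intervals give the tag signal (pileup) at each summit, after the authors aligned reads with BWA-MEM, drew the same tag number from every library and ran MACS2 on each library alone. Cells for ATAC-seq had been treated with DNase before harvest. Columns with the authors' own means, fold changes and p-values were not used.

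The 2 RNA tables hold V-K562 with B-K562 and V-K562 with G-K562. Because the values are rounded normalised counts and not counts, differences were tested with limma-trend (limma 3.58.1, R 4.3.3) on log2(value + 1), over the 14958, 15271 and 15521 genes that reached 10 in 3 or more libraries (B-K562 and G-K562 against V-K562, and G-K562 against B-K562 in a fit of all 9 libraries). Fold changes of low genes are understated on this scale. Peaks that overlapped across libraries were merged, pileups were scaled by a trimmed mean of log ratios, missing values and those under the 5th percentile were set to 17 tags, and 52204, 54213 and 60181 regions with peaks in at least 3 libraries were tested likewise. A called gene or region had a Benjamini-Hochberg adjusted p of at most 0.05. The code was tested on simulated data. Gene bodies came from the exon coordinates in the tables. The GC content and sequence of regions were read from GRCh38 with bedtools 2.31.1. Motifs were searched in GRCh38 and in RefSeq promoters (GRCh38.p14).

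Of the symbols read as dates or blank (357), 28 were restored by gene ID. The others were named by that ID and their rows were kept. The 10 genes, all named, and the gene lists were chosen with earlier results of these data known. From the partner and target lists the 2 largest rises and falls in each comparison were named, with BASP1, the 2 genes most like each of the 4 factors with the widest range, the region nearest each start and each region changed at least 2-fold. Other regions and list genes were named after their values were seen. Alternatives were another pseudocount, filter, scaling or floor, a replicate block and each library left out.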

Additional observations from a re-analysis of the deposited data

Results flagged for a closer look

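Genes and regions are given here where wtBASP1 and BASP1-G2A differed from V-K562 in opposite directions. That choice, made in the same libraries, fixes the sign of the difference between the BASP1 lines, so the differences below are descriptions with no p-value. As log2 differences of G-K562 minus B-K562, these were -0.78 for GATA1, -2.36 for KLF1, -1.04 for TAL1, -1.66 for LMO2 and -1.02 for LDB1, each with B-K562 above and G-K562 below V-K562 in every library. Of the ATAC-seq regions, the difference was -2.30 at 7.9 kb from GATA1, -1.87 at 39.4 kb from GFI1B and -1.24 at 40.3 kb from ZFPM1. The gains in B-K562 that brought in these regions were not stable in limma-trend. With some single libraries left out, the adjusted p was 0.051 to 0.067 for GATA1 and 0.060 to 0.083 for GFI1B. For ZFPM1 it was 0.065 without B-K562 replicate 1 and 0.095 within GC bins.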

How the results depend on the processing

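In RNA, the number of factors lower in B-K562 compared to V-K562 was 1 in place of 2 in a fit of all 9 libraries, and 1 to 2 when libraries were left out in turn. GATA2 in G-K562 compared to V-K562 changed sign under quantile normalization, to -0.0094 (adjusted p = 0.88), from a main value that had not passed. Compared to B-K562, 4 factors in place of 6 were lower by at least 2-fold in G-K562 cells under trimmed-mean or quantile scaling, and over all genes quantile normalization moved the 2-fold split in B-K562 from 967 higher and 2110 lower to 1426 and 1554. In ATAC-seq, regions opened at least 2-fold in B-K562 compared to V-K562 numbered 5 without scaling, 0 with a peak required in every library, 1 with a peak in at least 1 library, 1 with a peak in both lines compared (chosen after seeing the data) and 1 to 4 with libraries left out, and those closed numbered 1 under scaling within GC bins, 1 with the replicate block together with GC bins, and 0 to 1 with libraries left out. In G-K562 compared to V-K562, regions closed at least 2-fold numbered 4 without scaling, 3 with a peak in every library and 4 within 2 kb of the genes, and those opened numbered 0 with a peak in every library, 0 with a peak in at least 1 library and 0 to 2 with libraries left out. In G-K562 compared to B-K562, 7 closed with a peak in every library. GFI1B at 49.1 kb, closed in G-K562 compared to V-K562, was 0.0383 without scaling. Regions with no passing difference changed sign as follows (log2). In B-K562 compared to V-K562, NFE2 at 5.2 kb was 0.0136 without scaling, and under scaling within GC bins it was 0.0296, TAL1 at -0.1 kb -0.0138, LDB1 at -0.2 kb -0.2358, GATA2 at -4.6 kb -0.0774 and NFE2 at its start -0.1611. Libraries left out gave NFE2 at its start from -0.0862 to 0.1255 and LDB1 at -0.2 kb from -0.0285 to 0.1862, and GATA2 at -4.6 kb from -0.0809 to 0.3586. For G-K562 against V-K562, LDB1 at 7.9 kb was 0.2408 and at -0.2 kb 0.1823 and KLF1 at 2.0 kb 0.1313 without scaling, and under GC bins GATA2 at 5.3 kb was -0.3190 and at -4.6 kb -0.2278, KLF1 at 5.7 kb -0.1446, LDB1 at 7.9 kb was 0.025 and ZFPM1 at 1.3 kb -0.3053. Libraries left out gave GATA2 at 5.3 kb from -0.0226 to 0.094 and at -4.6 kb from -0.145 to 0.3021, and KLF1 at 5.7 kb from -0.156 to 0.1629. Between the BASP1 lines, GFI1B at -1.0 kb was -0.0377 under GC bins and from -0.1521 to 0.2071 with libraries left out, and LMO2 at 21.7 kb from -0.0134 to 0.3214, while KLF1 at 2.0 and -3.8 kb was 0.1823 and 0.1701 without scaling and from -0.0953 to 0.0038 and -0.1135 to 0.0587 with libraries left out. These sign changes under GC bins have the same values with the replicate block. Fewer regions are tested under a stricter filter, and otherwise the cause was not tested.

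Replicate numbers are shared by the lines, but libraries with the same number deviated together weakly at most (correlations from -0.10 to 0.15 over 18 pairs). Of the libraries, 3 of 9 in RNA and 7 of 9 in ATAC-seq were closest to their own number. The numbers were treated as names in the main fits, and whether the ATAC-seq libraries were weakly paired was not tested. With the replicate block the RNA counts of factors stayed at 7 higher and 2 lower in B-K562 and 7 lower in G-K562 compared to V-K562, and 9 lower between the BASP1 lines. Peak calls near the floor limit what ATAC-seq can show for weak regions such as those of BCL11A.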
